A study of Rattus norvegicus with 6 samples.

Results

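The 7 mitochondrially encoded subunits of respiratory complex I (Mt-nd1, Mt-nd2, Mt-nd3, Mt-nd4, Mt-nd4l, Mt-nd5 and Mt-nd6) were followed in kidney RNA of rats with an induced glomerular disease. They were taken by gene identifier from a table of 21986 genes, in which 37 genes lie on the mitochondrial chromosome (chr MT), so that 30 other chr MT genes remained for comparison. The identifiers are ENSRNOG00000030644, ENSRNOG00000031033, ENSRNOG00000033615, ENSRNOG00000029707, ENSRNOG00000031053, ENSRNOG00000029971 and ENSRNOG00000029042, in the order just given, and all 7 were checked to be listed on chr MT. The table does not pair identifiers with names, so the names of these 7 come from the rule that selected them, and other genes stay unnamed.

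The samples were kidney tissue of male Wistar rats labelled wild type, 3 of them controls and 3 FSGS. FSGS is focal segmental glomerulosclerosis, a scarring disease of the filtering units of the kidney. Animals of the FSGS group lost the left kidney and were then given adriamycin, an anthracycline toxic to glomerular cells, into the tail vein, at 5 mg/kg on postoperative day 7 and 3 mg/kg on day 28. Controls had saline by injection in place of the drug, and no operation is stated for them, so surgery and drug cannot be told apart. The titles call all samples untreated. The labels do not say that each sample came from a different animal, so the p-values rest on a spread between samples that may be technical. Ages were not given, and tissue markers were not analysed here because the table holds no gene names.

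Complex I is the entry point of electrons from NADH into the respiratory chain, and it pumps protons across the inner mitochondrial membrane. Its membrane arm is built around the subunits encoded in mitochondrial DNA, while the other subunits are encoded in the nucleus. Mitochondrial DNA is transcribed from both strands into long precursors that are cut into single RNAs. The messengers of Mt-nd1, Mt-nd2, Mt-nd3, Mt-nd4, Mt-nd4l and Mt-nd5 come from the heavy-strand precursor, and Mt-nd6 is the only messenger of the light strand. Mt-nd4l and Mt-nd4 stay joined in 1 messenger. The kidney is rich in mitochondria, which power the transport of solutes by its tubules.

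Values are FPKM, fragments scaled to gene length and to the mapped total of the library, so levels of different genes can be compared only roughly. An FPKM is a share of its library. Summed FPKM ran from 614047 to 691777 in controls and from 754892 to 824403 in FSGS samples, and depth is unknown. The median log2 change of all 14139 genes tested was 0.11, FSGS minus control, and 44% of them changed by limma at an adjusted p under 0.05 (27% rose and 17% fell).

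The complex I messengers did not move as 1 block. Mt-nd3 fell, with an FSGS mean at 0.56 of the control mean, and was the 1 subunit of 7 to pass the test as deposited. Of the other 6, 5 had estimates above 0 and Mt-nd6 had one near 0, and none passed. Thus 0 of 7 rose and 1 of 7 fell, beside 27% rising and 17% falling over all genes tested. Of the 30 other chr MT genes, 17 rose and 0 fell. Most of those 30, however, were unlike the subunits in level: 23 averaged below 2000 FPKM, which no subunit did. Among the 7 others above that level, 3 rose and 0 fell. The 30 were not sorted into messengers and other RNAs, so these counts are not a contrast among mitochondrial messengers. The median log2 change was 0.20 over the 7 subunits, 0.72 over the 30 other chr MT genes and 0.11 over all genes tested. At an unadjusted limma p under 0.05, 1 of the 7 (Mt-nd5) was higher in FSGS samples, beside 31.7% of all genes tested.

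Mt-nd3 codes for a small subunit near the junction of the membrane arm and the matrix arm, with a loop that moves when the enzyme switches between its active and resting states. Controls 1, 2 and 3 had 4806, 5687 and 6532 FPKM of it. The FSGS samples 1, 2 and 3 had 2759, 3458 and 3319 FPKM. The lowest control thus lay above the highest FSGS sample. The means were 5675 ± 863 and 3178 ± 370 FPKM (SD, n = 3 each), and the log2 change was -0.83 ± 0.19 (SE; limma adjusted p = 0.00709). Mt-nd3 was the lowest of the 7 in every library. Its estimate was below 0 under all 19 alternative settings and passed the test under 17 of them. The exceptions were the fit with no filter on low genes (adjusted p = 0.0787) and the scaling that leaves out chr MT and the most abundant nuclear genes (log2 change -0.70, adjusted p = 0.0512).

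Mt-nd2, Mt-nd4 and Mt-nd5 code for the antiporter-like subunits, the proton-pumping modules of the membrane arm. Mt-nd5 was at 6577, 6751 and 7928 FPKM in controls and at 8938, 9999 and 10300 FPKM in FSGS samples, in replicate order. Every FSGS sample was above every control. Its log2 change was 0.46 ± 0.18 (SE), which did not pass the test (limma adjusted p = 0.0630). The call turned in 6 settings, listed in the closing section, where the adjusted p was between 0.0235 and 0.0412.

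Mt-nd2 was at 14561, 16700 and 18202 FPKM in controls and at 19333, 21847 and 24141 FPKM in FSGS samples. Mt-nd4 was at 10036, 9566 and 11729 FPKM in controls and at 13008, 13062 and 15591 FPKM in FSGS samples. The groups did not overlap for either gene. The log2 changes were 0.40 ± 0.20 for Mt-nd2 and 0.41 ± 0.19 for Mt-nd4 (SE; limma adjusted p = 0.136 and 0.109), so neither passed the test. FSGS samples lay wholly above controls in 3 of 7 subunits, as they did in 34.6% of all genes tested, and wholly below in 1 of 7, where 21% of all genes did.

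Mt-nd1 codes for the subunit that forms much of the quinone-binding tunnel. It was at 16606, 18455 and 21402 FPKM in controls and at 18356, 21028 and 24272 FPKM in FSGS samples. The groups overlapped, and the log2 change was 0.17 ± 0.21 (SE; limma adjusted p = 0.535). It ran from 0.07 without FSGS 3, and 0.09 without control 1, to 0.27 without control 3 or without FSGS 1.

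Mt-nd4l codes for a small subunit between the quinone end and the pumping modules. It was at 16136, 15710 and 19327 FPKM in controls and at 17365, 20168 and 21155 FPKM in FSGS samples. These groups overlapped as well, with a log2 change of 0.20 ± 0.20 (SE; limma adjusted p = 0.444).

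Mt-nd6 codes for a membrane subunit beside Mt-nd4l and Mt-nd3 in the complex. It was at 6077, 6790 and 7630 FPKM in controls and at 6320, 6786 and 7008 FPKM in FSGS samples, so that the FSGS values lay inside the control range. The log2 change was -0.02 ± 0.17 (SE; limma adjusted p = 0.930). Its sign turned without control replicate 3 (0.06) and without FSGS replicate 1 (0.02).

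**Figure D1:**
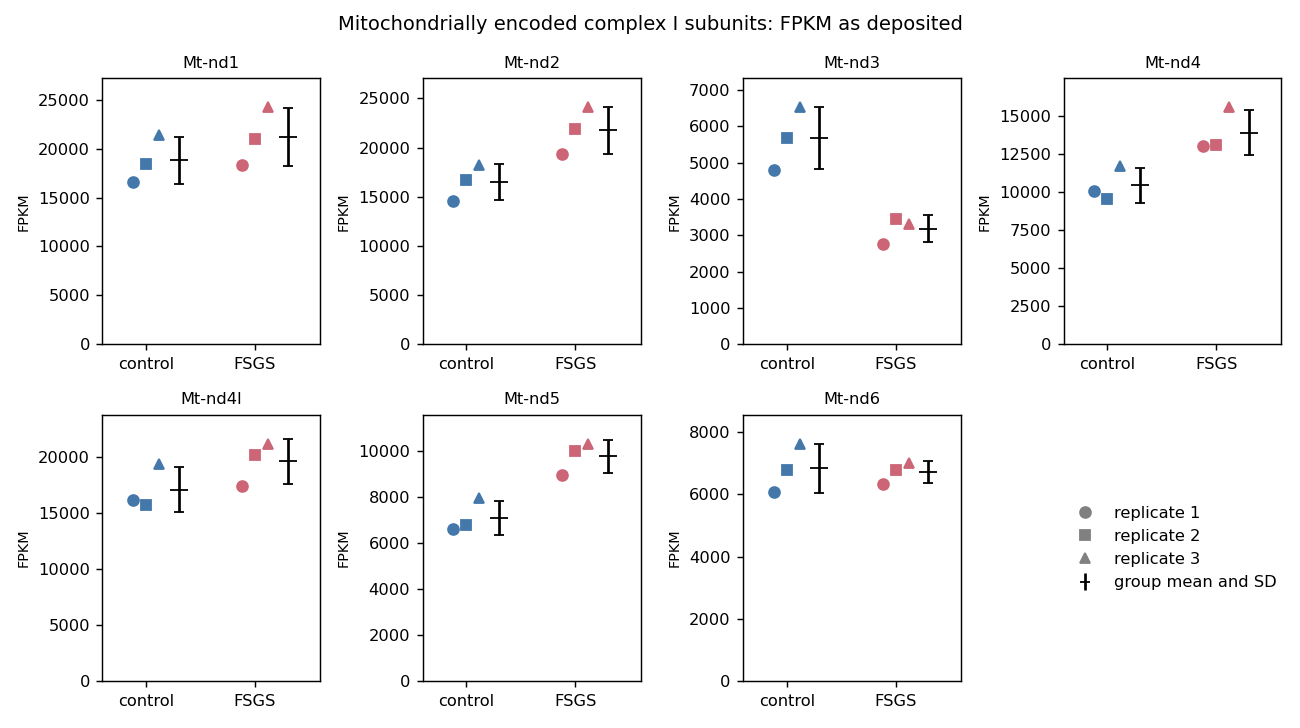
FPKM as deposited (vertical axes from 0) of the 7 subunits in each library, with controls in blue, FSGS samples in red, marker shape for replicate number, and bars for the group mean and SD (n = 3). The FSGS samples lie below all controls for Mt-nd3, above all controls for Mt-nd2, Mt-nd4 and Mt-nd5, and inside the control range only for Mt-nd6, while Mt-nd1 and Mt-nd4l overlap in part.

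All 7 subunits were among the most abundant RNAs of every library, at ranks 7 to 16 of all genes. Mt-nd1, Mt-nd2 and Mt-nd4l led the order, Mt-nd4 was in position 4 in all 6 libraries, and Mt-nd5, Mt-nd6 and Mt-nd3 followed. This is an order of FPKM and may not be that of messenger amounts. Mt-nd4l and Mt-nd4 share 1 messenger, yet averaged 17058 and 10444 FPKM in controls. In controls the means of the leading 3 were 18821 ± 2419, 16488 ± 1830 and 17058 ± 1977 FPKM for Mt-nd1, Mt-nd2 and Mt-nd4l (SD, n = 3). These means lay within the spread between libraries, but within each library Mt-nd1 was the highest of the 7 in all 3 controls, with a log2 ratio to Mt-nd2 of 0.19, 0.14 and 0.23. Mt-nd5 and Mt-nd6 were at 7085 ± 735 and 6832 ± 777 FPKM in controls, and which was higher differed between control libraries. In FSGS samples Mt-nd5 was at 9746 ± 715 and Mt-nd6 at 6705 ± 351 FPKM, and these ranges did not overlap.

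The spread within groups was shared by the subunits. Control 3 had the highest control value for 7 of 7 subunits, and FSGS 1 had the lowest FSGS value for 7 of 7. Control 1 was the lowest control for 5 of 7, and FSGS 3 the highest FSGS sample for 6 of 7. In both groups, then, replicate 1 was mostly the lowest and replicate 3 mostly the highest. Measured from the group mean, control 3 lay at 0.15 to 0.21 on the log2 scale and FSGS 1 at -0.20 to -0.08. The share of all FPKM that lay on chr MT moved the same way: it was 62.9% in control 3, against 51.6% and 55.0% in controls 1 and 2, and 64.0% in FSGS 1, against 68.4% and 71.7% in FSGS 2 and 3. Its part in the differences as deposited was not tested. The subunits were also measured against chr MT itself.

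As a share of summed chr MT FPKM, the 7 subunits together took less of the mitochondrial RNA in FSGS samples. Control samples held 23.6%, 22.5% and 21.3% in replicate order, a mean of 22.5% ± 1.16 (SD, n = 3). FSGS samples held 17.8%, 17.7% and 17.9%, a mean of 17.8% ± 0.107 (SD, n = 3). The groups did not overlap (two-sided exact permutation p = 0.1, the smallest that 3 against 3 allows). Summed FPKM of the 7 was 82403 ± 9284 in controls and 96071 ± 9856 in FSGS samples and overlapped (exact permutation p = 0.2). That of the 30 other chr MT genes was 286025 ± 51510 and 443726 ± 44331 and did not overlap (exact permutation p = 0.1). The lower share thus stood beside a larger sum of the other chr MT genes, not beside a smaller sum of the subunits. Of all FPKM, the 7 subunits held 12.7% ± 0.656 in controls and 12.1% ± 0.715 in FSGS samples, which overlapped (exact permutation p = 0.4).

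Mt-nd3 had the largest relative loss of chr MT share among the 7. It held 1.52%, 1.61% and 1.50% in controls and 0.571%, 0.635% and 0.561% in FSGS samples. The relative change of the mean share was -61.8%. Mt-nd6, the light-strand messenger, came next with a relative change of -33.2%: it held 1.92%, 1.92% and 1.75% in controls and 1.31%, 1.25% and 1.19% in FSGS samples. The values within each group lay close together and the gap between groups was wider than either range.

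Mt-nd1 held 5.13% ± 0.184 in controls and 3.92% ± 0.163 in FSGS samples. Mt-nd4l held 4.66% ± 0.378 and 3.62% ± 0.067. Both were lower in every FSGS sample than in any control. Mt-nd2 held 4.50% ± 0.285 and 4.03% ± 0.045, and Mt-nd4 held 2.86% ± 0.271 and 2.58% ± 0.157. These also did not overlap, but for Mt-nd4 the closest values were 2.694% in control 3 and 2.692% in FSGS 1, which are next to equal. Without control 1 the difference in the share of Mt-nd4 was -0.125 percentage points (exact permutation p = 0.4), against -0.282 with it. The groups then still did not overlap, by the same narrow margin between control 3 and FSGS 1. Mt-nd5 held 1.94% ± 0.130 and 1.81% ± 0.058 and overlapped (exact permutation p = 0.3), and its difference of -0.127 percentage points was -0.057 without control 1.

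In all, 6 of 7 subunits had a lower share in every FSGS sample than in any control (exact permutation p = 0.1 for each), and 0 of 7 a higher one. Over all 37 chr MT genes, 29.7% were wholly lower and 32.4% wholly higher, and among the 30 others 5 were wholly lower and 12 wholly higher. Of those 30, 23 averaged below 2000 FPKM, unlike the subunits, and the 30 were not sorted into messengers and other RNAs. With the most abundant other chr MT gene left out of the total, 4 of 7 were wholly lower. Mt-nd2 and Mt-nd4 then overlapped between the groups, with differences of -0.346 and -0.197 percentage points (exact permutation p = 0.3 and 0.6). Shares of 1 total are not independent, since a gene that gains lowers the rest.

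**Figure D2:**
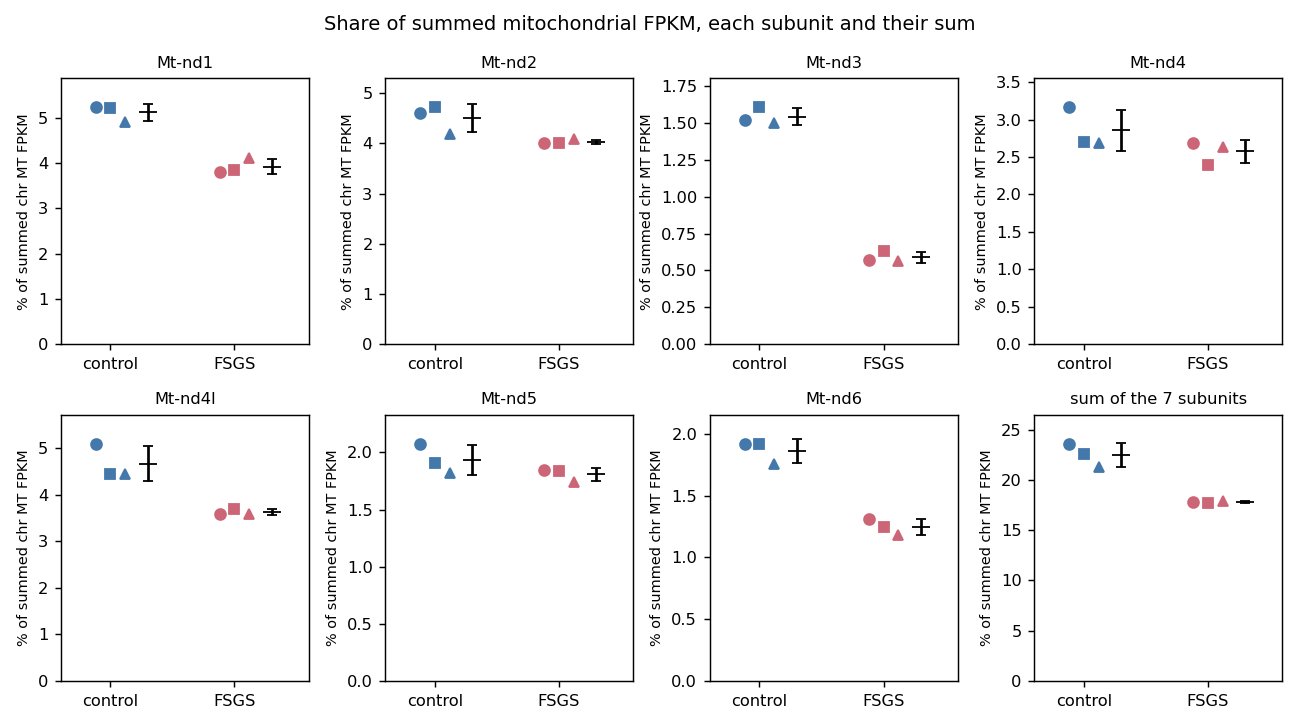
Percent of summed chr MT FPKM (vertical axes from 0) held by each subunit and by the 7 together in each library, with controls in blue, FSGS samples in red, marker shape for replicate number as in the FPKM plot (circle 1, square 2, triangle 3), and bars for mean and SD (n = 3). The 7 together lie between 21.3% and 23.6% in controls and between 17.7% and 17.9% in FSGS samples, and only Mt-nd5 overlaps between the groups.

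Fitted across all genes after dividing each library by its summed chr MT FPKM, 4 of 7 subunits fell and 0 rose, beside 26.9% of all genes tested falling and 8.69% rising. Those 4 were Mt-nd3, Mt-nd6, Mt-nd1 and Mt-nd4l. The log2 change was -1.39 ± 0.18 for Mt-nd3, -0.58 ± 0.16 for Mt-nd6, -0.39 ± 0.12 for Mt-nd1 and -0.36 ± 0.13 for Mt-nd4l. Their limma adjusted p-values were 1.42e-13, 0.00150, 0.00756 and 0.0163 in the same order. In this fit limma took the spread from all genes and gave no weight to each gene's own, so these p-values do not reflect each gene's own spread over the 6 samples. Without the mean-variance trend, added after seeing the data, Mt-nd3 still fell (adjusted p = 1.22e-05), while Mt-nd6, Mt-nd1 and Mt-nd4l did not pass (adjusted p = 0.102, 0.302 and 0.340). That fit also gave no weight to each gene's own spread, with the same SE of 0.287 for all 7, so its p-values have the same limit.

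**Figure D3:**
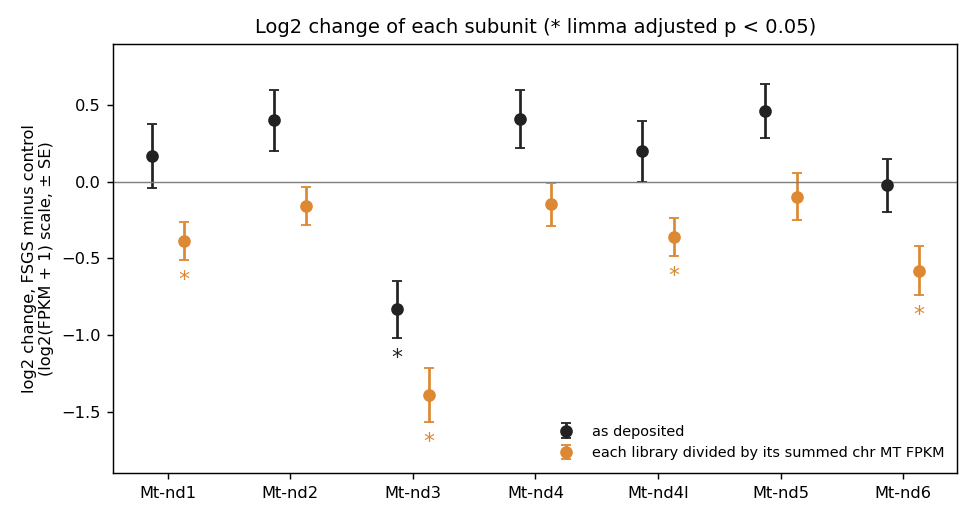
Log2 change with SE of each subunit, FSGS minus control on the log2(FPKM + 1) scale, as deposited (black) and after dividing each library by its summed chr MT FPKM (orange), with a star where the limma adjusted p was under 0.05. Mt-nd3 is at -0.83 and -1.39, and the other subunits lie between -0.02 and 0.46 as deposited and between -0.58 and -0.10 after the division.

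Of the 37 chr MT genes, 14 averaged at least 2000 FPKM, among them all 7 subunits and 7 others, a class chosen after seeing the data. Over those 7 others the log2 changes ran from 0.27 to 0.83 with a median of 0.61, and 3 rose and 0 fell by limma. Over the subunits they ran from -0.83 to 0.46. The log2 ratio of the summed subunits to these 7 was -1.66, -1.75 and -1.86 in controls and -2.17, -2.18 and -2.16 in FSGS samples. It differed by -0.41 (exact permutation p = 0.1) and did not overlap. The FSGS samples lay close together, with an SD of 0.00826, while the SD of the controls was 0.0980 and control 3 was nearest to the FSGS samples.

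Ratios between 2 subunits within a library do not depend on how the library was scaled. Of the 21 pairs, 17 (81.0%) had log2 ratios that did not overlap between the groups, beside 60.2% over all pairs of chr MT genes and 56.8% over pairs of the 30 others. Most of the 30 others, 23, averaged below 2000 FPKM, so these pairs were not of like level. They were also not limited to messengers. Each pair without overlap had an exact permutation p of 0.1, the smallest possible, and pairs that share a gene are not independent. The 17 include Mt-nd4 with Mt-nd4l, which share 1 messenger and yet differed by 0.21 on the log2 scale. The count is therefore not one of messengers moving apart. Some other pairs in it differed by about as much, such as Mt-nd1 to Mt-nd6 (0.19) and Mt-nd2 to Mt-nd4l (0.20). The 4 pairs that overlapped were Mt-nd2 with Mt-nd4, Mt-nd2 with Mt-nd5, Mt-nd4 with Mt-nd5, and Mt-nd1 with Mt-nd4l. The first 3 of these join the antiporter-like subunits, whose mutual ratios differed between groups by -0.01, -0.06 and -0.05 on the log2 scale. Mt-nd1 to Mt-nd4l differed by -0.03. A difference smaller than the spread of 3 samples does not show that these genes moved alike.

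Mt-nd3 was lower against all 6 other subunits, by 0.81 (against Mt-nd6) to 1.29 (against Mt-nd5) on the log2 scale. Its log2 ratio to Mt-nd5 was -0.45, -0.25 and -0.28 in controls and -1.70, -1.53 and -1.63 in FSGS samples. The log2 ratio of Mt-nd1 to Mt-nd3 was 1.79, 1.70 and 1.71 in controls and 2.73, 2.60 and 2.87 in FSGS samples. In both, the gap between the groups was wider than the range within either.

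The light-strand messenger was lower against the heavy-strand messengers. Mt-nd6 stood at 53.1%, 55.9% and 53.8% of the mean of the other 6 in controls and at 47.5%, 45.5% and 42.6% in FSGS samples. The groups did not overlap. On the log2 scale the ratio was -0.88 ± 0.04 and -1.15 ± 0.08 (SD, n = 3 each), a difference of -0.26 (two-sided exact permutation p = 0.1). Mt-nd6 was lower against 5 of the 6 heavy-strand subunits, and higher against Mt-nd3. The ratio of Mt-nd5 to Mt-nd6 was 0.11, -0.01 and 0.06 in controls and 0.50, 0.56 and 0.56 in FSGS samples. Mt-nd5 and Mt-nd6 lie end to end on opposite strands. The libraries were strand-marked, but whether the counting used strand was not given in the sources used here. Reads from Mt-nd6 and from heavy-strand precursor opposite to it therefore cannot be told apart. The libraries were also enriched with oligo(dT), and Mt-nd6 is known in human cells for a messenger with little or no poly(A) tail. The part of tail length in these values was not tested.

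Mt-nd4 and Mt-nd4l, which share a messenger, did not keep 1 ratio. The log2 ratio of Mt-nd4 to Mt-nd4l was -0.69, -0.72 and -0.72 in controls and -0.42, -0.63 and -0.44 in FSGS samples. The groups did not overlap, with a difference of 0.21 (exact permutation p = 0.1), and FSGS 2 lay near the controls. Without FSGS 2 the difference of the inverse ratio, Mt-nd4l to Mt-nd4, was -0.28, against -0.21 with it. The coding regions of both genes overlap, and Mt-nd4l and Mt-nd3 are the shortest of the 7, near the size of the sequenced fragments. How the authors assigned such fragments was not given, and its part in the values of the short genes was not tested. Nuclear copies of mitochondrial DNA can also share reads with all 7 genes.

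**Figure D4:**
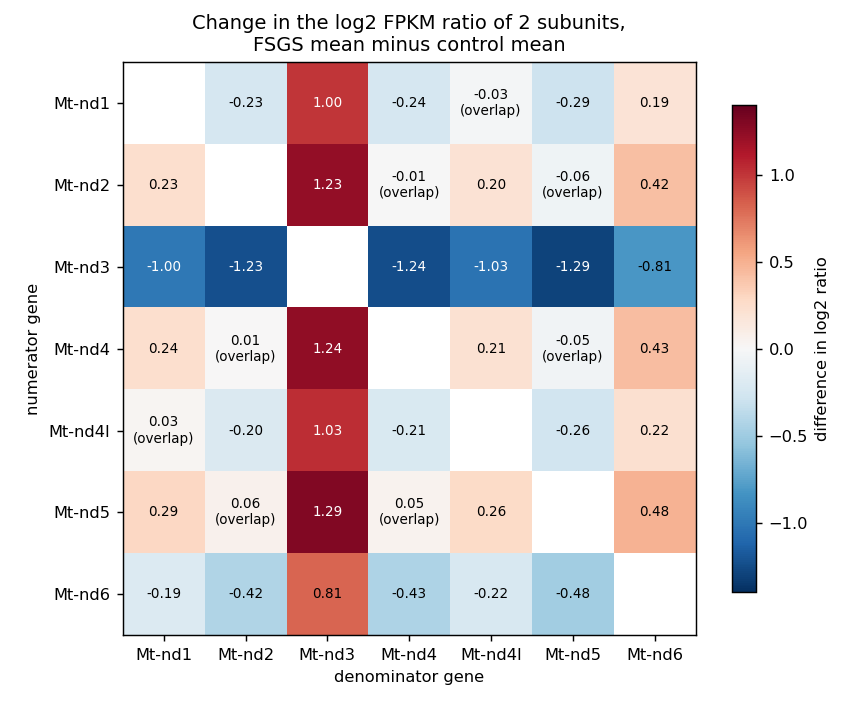
Difference between the FSGS and control means of the log2 FPKM ratio for each pair of subunits, with the numerator gene in rows, the denominator gene in columns, and blue for a lower and red for a higher ratio in FSGS samples. The row of Mt-nd3 runs from -0.81 to -1.29, and the 4 pairs marked as overlapping are those within Mt-nd2, Mt-nd4 and Mt-nd5 and between Mt-nd1 and Mt-nd4l.

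Within the pool of the 7 subunits, Mt-nd3 went from 6.87% ± 0.387 to 3.31% ± 0.244 of the summed FPKM and Mt-nd6 from 8.29% ± 0.208 to 7.00% ± 0.360 (SD, n = 3 each). Mt-nd2 went from 20.02% ± 0.823 to 22.7% ± 0.182, Mt-nd4 from 12.7% ± 0.705 to 14.5% ± 0.811 and Mt-nd5 from 8.61% ± 0.166 to 10.2% ± 0.372. For these 5 the groups did not overlap (exact permutation p = 0.1 each). Mt-nd1, at 22.8% ± 0.533 and 22.0% ± 0.829, and Mt-nd4l, at 20.7% ± 0.932 and 20.4% ± 0.497, overlapped.

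A scaling with 1 factor per library keeps the order of the changes among subunits by construction, but it moves the place of 0 in that order. Mt-nd5 was the highest and Mt-nd3 the lowest in each of them. Mt-nd1 was at 0.17 in the deposited values, at 0.04 under median-of-ratios scaling and at -0.12 in TPM. Mt-nd4l was at 0.20, 0.06 and -0.09 in the same order. Mt-nd6 was at -0.02, -0.16 and -0.31, and at 0.11 after rescaling without chr MT and the most abundant nuclear genes. Of these only Mt-nd3 passed the test under median-of-ratios scaling and TPM (adjusted p = 0.0172 and 0.000140). In whole kidney RNA, fewer cells of a type and less RNA per cell cannot be told apart.

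**Figure D5:**
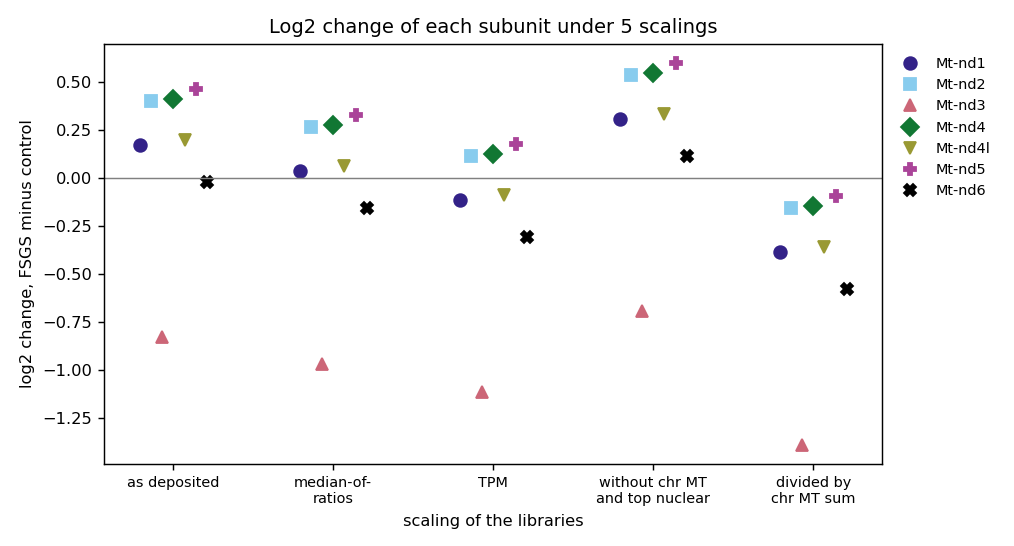
Log2 change (FSGS minus control) of each subunit under 5 scalings with 1 factor per library, points being offset sideways for legibility. The order of the 7 is the same in each column while all shift together, so that Mt-nd3 is below 0 in all 5 and Mt-nd6 is above 0 only after rescaling without chr MT and the most abundant nuclear genes.

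The genes most like the mean of the 7 subunits over the 6 libraries, by Pearson r of log2(FPKM + 1), were another chr MT gene and 2 nuclear genes. ENSRNOG00000031979 on chr MT had r = 0.97, with 41883 to 58165 FPKM in controls and 52027 to 65729 FPKM in FSGS samples. ENSRNOG00000033803 on chromosome 9 had r = 0.94, at 0.38 to 1.71 FPKM over all libraries. ENSRNOG00000046944 on chromosome 1 had r = 0.94, at 5.06 to 25.2 FPKM. None of these 3 passed the limma test (adjusted p = 0.380, 0.390 and 0.642). They were the highest of all genes tested over only 6 libraries, which share the spread between libraries described above.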

How the data were processed

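Kidney RNA of 3 control and 3 FSGS samples was selected on oligo(dT) beads and made into paired-end libraries whose second strand carried dUTP, per the labels' protocols. The authors deposited 1 table of FPKM values, per the file headers, with at most 2 decimals. Tools listed in the submitters' processing notes, with no role stated, are StringTie 2.1.6, HISAT2 2.2.1, cutadapt 1.9, edgeR and DESeq2. The sources used here do not give the build, annotation or strand setting, so no coordinates are printed. All 6 columns were matched by the short sample name in the description field.

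FPKM carry no counts. Low values were searched for whole-read steps: at most 12.8% of genes shared a log2 ratio window of 0.05 between 2 libraries, over 16 to 136 genes of at least 0.3 FPKM. No reads were recovered, so no counting error is given.

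Genes with a mean of at least 0.5 FPKM were fitted as log2(FPKM + 1) with limma 3.58.1 (R 4.3.3), group alone, mean-variance trend, Benjamini-Hochberg over all 14139 genes, threshold 0.05. The fit was also run on simulated data, with genes varying independently and changes larger than those of the subunits as deposited. That run does not show how well changes of their size are found. Shares and ratios were compared by two-sided exact permutation of samples, for 8 chr MT shares and 21 pair ratios, without adjustment, since the smallest p is 0.1. Alternatives were pseudocounts, filters, scalings, limma options, the replicate number as a block, denominators and leaving out each library.

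The 7 genes, the lists and the tests were chosen with earlier results of these data known. The rule for named genes took all 7 subunits and the 3 genes most like their mean. The RefSeq table (GRCr8) carries an Ensembl identifier in 0 of 47357 rows and lists 0 chr MT genes, so nuclear complex I genes, other lists and cell type markers were not analysed here. Figures were drawn with matplotlib 3.10.9.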

Additional observations from a re-analysis of the deposited data

How the results depend on the processing

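Mt-nd3 kept its direction under all 19 alternatives of the fit, with log2 changes of -1.39 to -0.70, and lost its call under 2, so that 0 subunits fell with no filter and 0 after rescaling without chr MT and the 20 most abundant nuclear genes, against 4 after division by summed chr MT FPKM. Rising subunits numbered 1 with pseudocount 5, 2 at a mean of at least 5 FPKM, 2 with no trend, 1 with the robust option, 1 with the replicate block and 0 to 1 when each library was left out in turn (1 without control replicate 3). Mt-nd5 is among them in all 6 settings, with Mt-nd4 in the 2 that gave 2. After division by summed chr MT FPKM, with or without a trend, log2 changes turned below 0 for Mt-nd1 (-0.39), Mt-nd2 (-0.16), Mt-nd4 (-0.15), Mt-nd4l (-0.36) and Mt-nd5 (-0.10). They turned for Mt-nd1 after rescaling to TPM (-0.12) and with quantile normalization (-0.050), and for Mt-nd4l (-0.088 and -0.074). Mt-nd6 turned above 0 after the rescaling without abundant genes (0.11), without control replicate 3 (0.060) and without FSGS replicate 1 (0.02). Quantile normalization gives genes of fixed rank fixed values, and Mt-nd4, at rank 10 in every library, got a change of 0 by construction.

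The share of Mt-nd2, Mt-nd4 and Mt-nd5 was higher, not lower, in FSGS samples against all genes (by 0.210, 0.145 and 0.140 percentage points) and against the 7 subunits (by 2.63, 1.78 and 1.56), the last denominator being added after seeing the data. Against all genes, Mt-nd2 and Mt-nd4 overlapped between the groups (exact permutation p = 0.3 and 0.2). The sum of the subunits was 8.83 points higher as a percent of summed nuclear FPKM, with overlapping groups (exact permutation p = 0.2). Without Mt-nd3, also added later, 11 of 15 pairs did not overlap. Leaving out single libraries gave 17 to 18 of 21, but this count could not fall, since groups that are apart stay apart with fewer samples.

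Over all genes, 3672 were called at a mean of at least 5 FPKM, 2068 rising and 1604 falling, with fewer genes tested. Rising genes numbered 2012 after rescaling to TPM. They numbered 1229, with 3802 falling, after division by summed chr MT FPKM, and 1086, with 3769 falling, when the trend was left out too. With the replicate block 6900 were called, against 6222. Over all genes tested, libraries with the same number had deviations from their group means that correlated at 0.13, 0.03 and 0.02, so numbers were not taken as pairs. The subunits deviated more alike: by -0.23 to -0.05 in control 1 and -0.20 to -0.08 in FSGS 1, and by 0.15 to 0.21 in control 3 and 0.07 to 0.20 in FSGS 3. From each subunit's own spread alone, the SE was 0.104 to 0.163 without the block and 0.0069 to 0.0811 with it. The cause of the shifts was not tested where none is given. Depth, and so its limit, is unknown.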
